A study of Mus musculus with 6 samples.

Results

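The Wnt receptors, modulators and targets described here are 36 genes of the 28146 gene names on the array. They are the frizzled receptors Fzd1 to Fzd10, the co-receptors Lrp5 and Lrp6, the receptor tyrosine kinases Ror1, Ror2 and Ryk, the R-spondin receptors Lgr4, Lgr5 and Lgr6, and the antagonists Dkk1, Dkk2, Dkk3, Sfrp1, Sfrp2, Sfrp4 and Wif1 with the Dickkopf receptor Kremen1. The remainder are Apc, Axin1, Ctnnb1 and Tcf7 of the intracellular cascade, the feedback inhibitors and targets Axin2, Nkd1, Nkd2, Notum and Sp5, and Porcn, which acylates the ligands. The genes were chosen by name, and their 62 probes are all probes that carried one of these names. 56 probes of 33 genes were bright enough to be tested, and Ror1, Dkk1 and Wif1 had no tested probe.

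Wnt proteins are secreted, lipid-modified ligands. In the canonical branch a frizzled receptor and an LRP co-receptor bind the ligand, the complex of Axin and Apc no longer marks beta-catenin (Ctnnb1) for destruction, and beta-catenin with a TCF factor such as Tcf7 switches on targets that include the feedback inhibitors Axin2, Nkd1 and Notum. In stratified epithelia such as that of the esophagus the pathway is known for its part in the proliferation of basal keratinocytes, and stromal cells are a known source of secreted antagonists.

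RNA of esophagus from adult C57BL/6J mice was measured on 6 two-colour arrays, 3 labelled wild type and 3 labelled knockout. The knockout mice carried K5Cre and Pax9 loxp/loxp, so a keratin 5 driver recombines the floxed Pax9 gene in basal cells of stratified epithelia, and no group with the driver or the floxed allele alone was among the samples. Esophagus RNA was in Cy5, and in Cy3 was a common reference RNA pooled from 11 mouse cell lines, so each value is a log2 ratio of esophagus over reference, and differences are knockout minus wild type arrays. The samples of a group are labelled biological replicates with nothing said of the animals, and the p-values measure the spread between them.

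The probe of Pax9, a paired-box transcription factor, does not check the labels in the direction of a deletion. Its log2 ratio was 6.28, 6.13 and 5.70 on the wild type arrays and 6.81, 6.78 and 6.72 on those labelled knockout (difference 0.73, SE 0.18, limma adjusted p = 0.071), and it passed with Cy5 alone (1.15, adjusted p = 0.0071). The probe lies at chr12:57811169-57811228 (mm9), and the labels do not say whether the floxed part covers it. "Knockout" below therefore means the arrays labelled so. The wild type arrays shared one slide and the knockout arrays another, so slide and group cannot be told apart. The Cy3 reference, which was the same RNA throughout, did not overlap between the 2 slides in 66.8% of all tested probes and in 35 of the 56 probes of the Wnt genes (62.5%). Its difference is given beside part of the results only, and a result without it may hold such a shift too. For the Pax9 probe the Cy3 difference was 0.43. Where it is not given below, it was -0.15 for Lgr5, and -0.41 for Lgr4 and 0.31 for Nkd1 by their probes with the smallest p. In Cy5 between 67.3% and 77.3% of probes were well above background. The arrays differed in brightness, with a median Cy5 signal of 56, 73 and 159 on the wild type and 98, 133 and 124 on the knockout arrays. Cy5 and Cy3 signals quoted below are background-subtracted and not normalized for this. The source label says epithelium and the extraction protocol says esophageal tissue. All 11 tested probes of squamous epithelium markers had ratios above 0 on every array, and so had 12 of 13 probes of skeletal muscle markers.

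Probes of some genes with small p-values are shown, among which Fzd3 had probes that disagreed in sign. Apc, with probes of both signs and a smaller p than Lgr6, Notum or Fzd3, is not shown. The first 30 bases of each 60-base probe are printed 5′ to 3′ as in the files, with coordinates on mm9. No annotation of that build was used, so exon and UTR are not assigned. Porcn lies at chrX:7771223-7771282, Lgr6 at chr1:136883782-136883841 and Notum at chr11:120515521-120515580. Fzd5 lies at chr1:64781972-64782030 and Kremen1 at chr11:5094671-5094730. The 3 Fzd3 probes lie at chr14:65811278-65811319, chr14:65811641-65811700 and, across an intron, chr14:65831004-65853753. All 8 probes are on the minus strand. The span given for the first Fzd3 probe is shorter than its 60 bases. The files place it at base 2616 of the transcript and the second at 12319, although by coordinate the first lies downstream. Its placement is therefore uncertain.
Porcn: ccccttcaatacccctccttagggtgccaa
Lgr6: tggagaagagctcctgcgactccacccaag
Notum: ggatggagcccagcaagctgctagggatgc
Fzd5: acggggacccagtggctggcatctgctatg
Kremen1: aagactcttgggtggtggggaggtatagtg
Fzd3, the first probe: tggggtgtgaacacatccaaaccctaagga
Fzd3, the second probe: tccgaattaaattgctgaggtaactaaatt
Fzd3, the third probe: caggttactcagatgagtcgtccagacctg

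None of the 56 tested probes passed an adjusted p of 0.05 in limma, whereas 1274 of the 30501 probes tested did (4.18%). At an unadjusted p under 0.05 there were 11 of 56 (19.6%), 4 with a higher and 7 with a lower mean on the knockout arrays, beside 23.4% of all probes (11.9% higher and 11.4% lower). The groups did not overlap in 12 of 56 (21.4%), beside 30.5% of all probes. The median difference was -0.04, and its median size was 0.31, beside -0.003 and 0.27 over all probes. Only Porcn and Sfrp2 had a probe with a difference of at least 1 in size, which is 3.57% of these probes and 4.83% of all. Shares of the Wnt genes were thus near or below the background, and the wide intervals of several antagonists do not show that these genes were alike in both groups. With the replicate number as a block 2 probes passed, of Apc (adjusted p = 0.046) and Lgr6 (adjusted p = 0.043), where the block called 7.39% of all probes. With Cy5 alone 11 of 56 passed, where that setting called 26.9% of all. The deposited log ratio and the deposited matrix values each passed 2 of 56, of Lgr6 and Kremen1, and called 2.38% and 2.34% of all probes.

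**Figure D1:**
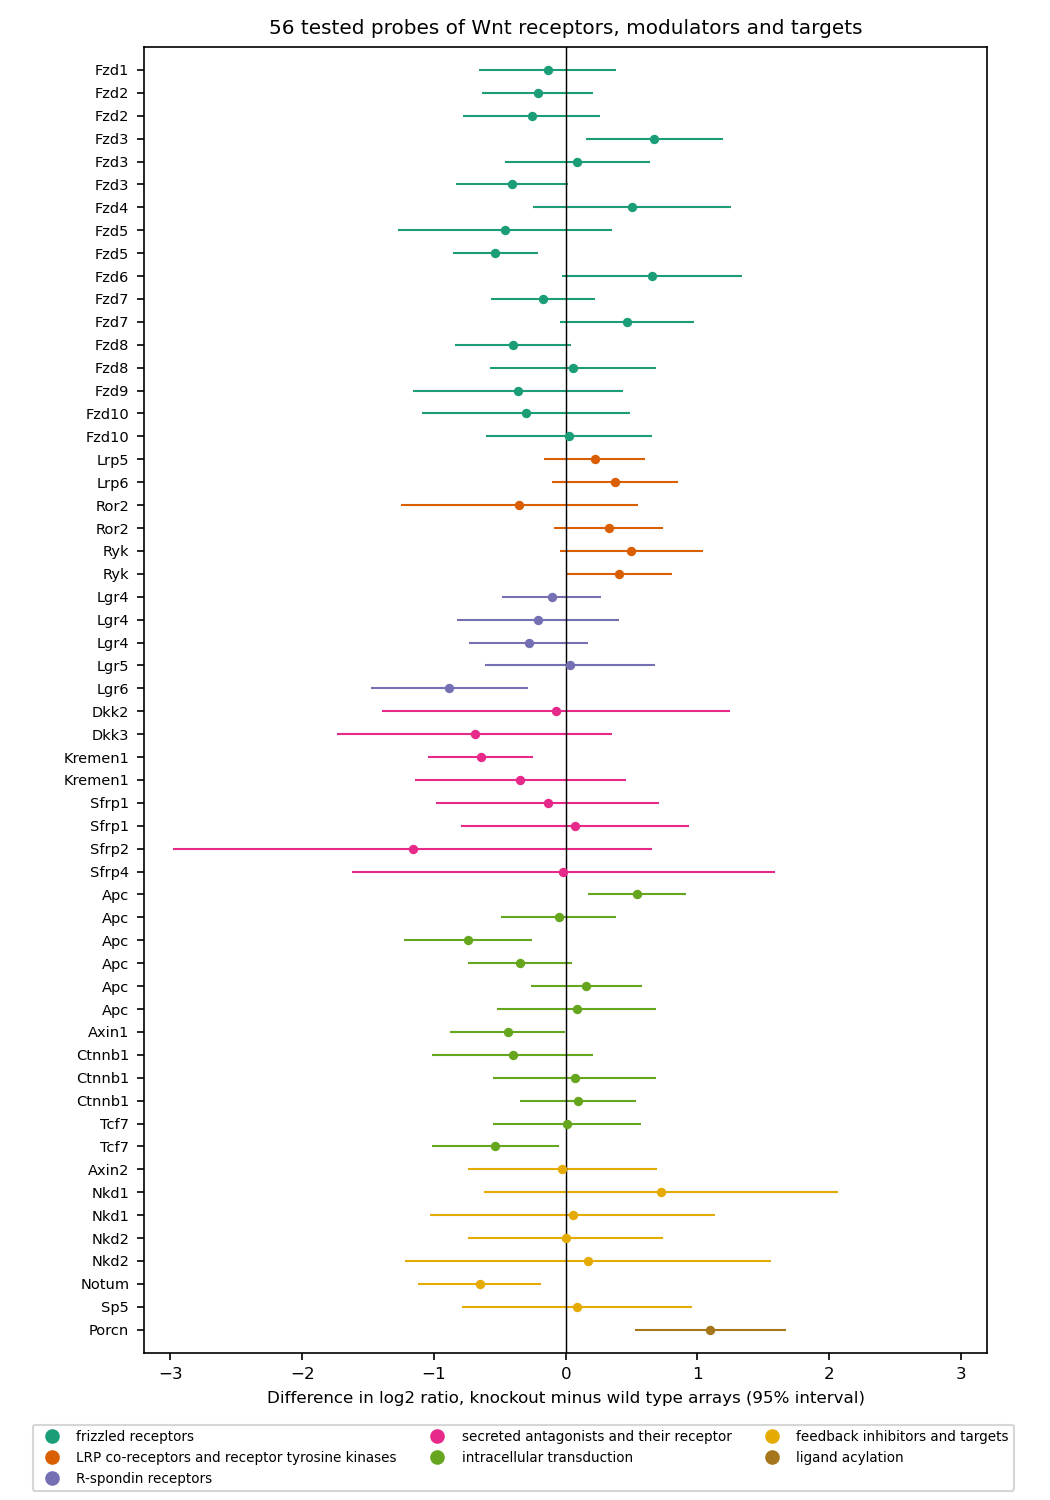
Difference in log2 ratio between the 3 knockout and the 3 wild type arrays for each of the 56 tested probes, ordered and coloured by the role of the gene. Points are limma estimates and bars their 95% intervals, not adjusted for the number of probes; Porcn lies at 1.10 and Sfrp2, with the widest bar, at -1.16.

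Porcn, the membrane-bound acyltransferase that attaches a lipid to Wnt ligands before secretion, had the smallest p of the Wnt genes. Its log2 ratio was -0.10, 0.57 and 0.49 on the wild type arrays and 1.69, 1.08 and 1.48 on the knockout arrays. Every knockout array lay above every wild type array. The difference was 1.10 (SE 0.24, 95% interval 0.52 to 1.67, limma adjusted p = 0.055) and did not pass. The background-subtracted Cy5 signal was 361, 688 and 1718 on the wild type arrays and 2530, 2225 and 2661 on the knockout arrays, while the Cy3 difference was 0.07 on the log2 scale. Porcn passed with Cy5 alone (1.14, adjusted p = 0.021) and with an intensity trend in the variance model (adjusted p = 0.049), which called 5.73% of all probes.

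Of the frizzled receptors, the seven-pass membrane proteins that bind Wnt ligands, all 10 genes were tested, by 17 probes. Differences ran from -0.53 (Fzd5) to 0.67 (Fzd3), with 7 above and 10 below 0. The groups did not overlap in 3 probes (17.6%, beside 30.5% of all probes). Fzd5 read 0.71, 0.58 and 0.59 on the wild type arrays and 0.18, -0.01 and 0.11 on the knockout arrays. All 3 knockout values lay below the wild type range. The difference of -0.53 (SE 0.14, limma adjusted p = 0.075) stood beside a Cy3 difference of -0.87, with Cy3 signals of 169, 157 and 148 against 39, 58 and 52. The part of the slide in this value cannot be told apart from that of the genotype. The other Fzd5 probe differed by -0.46 (adjusted p = 0.46), with overlapping groups.

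Fzd3, a frizzled known for planar polarity, gave 3 answers from 3 probes. The first probe read 1.27, 0.61 and 0.54 on the wild type arrays against 1.42, 1.63 and 1.39, a difference of 0.67 (SE 0.22, limma adjusted p = 0.13) with no overlap. The second differed by 0.09. The third, which spans an intron, read 1.16, 0.67 and 0.80 against 0.37, 0.65 and 0.39, a difference of -0.41 (SE 0.18, adjusted p = 0.23) with no overlap in the opposite direction. The Cy3 differences of the 3 probes were 0.18, -0.56 and -0.39. No direction can be given for the gene. Fzd7 and Fzd8 also had a pair of probes of opposite sign (-0.17 and 0.46, and -0.40 and 0.06), as had Fzd10 (-0.30 and 0.02). For Fzd7 this holds for the ratio only. The Cy3 differences of its probes were 0.74 and 0.40. With Cy5 alone both Fzd7 probes were higher on the knockout arrays, by 0.45 and 0.85 (limma adjusted p = 0.088 and 0.040).

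Fzd6, which acts mainly outside the canonical branch in skin, differed by 0.65 (SE 0.29, limma adjusted p = 0.23) and Fzd4 by 0.51 (SE 0.32, adjusted p = 0.38). The Cy3 difference of Fzd6 was -0.04. Both groups overlapped for each of these genes. Differences of the other frizzleds measured by 1 probe or by probes of like sign were -0.14 for Fzd1, -0.21 and -0.26 for Fzd2 and -0.36 for Fzd9.

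**Figure D2:**
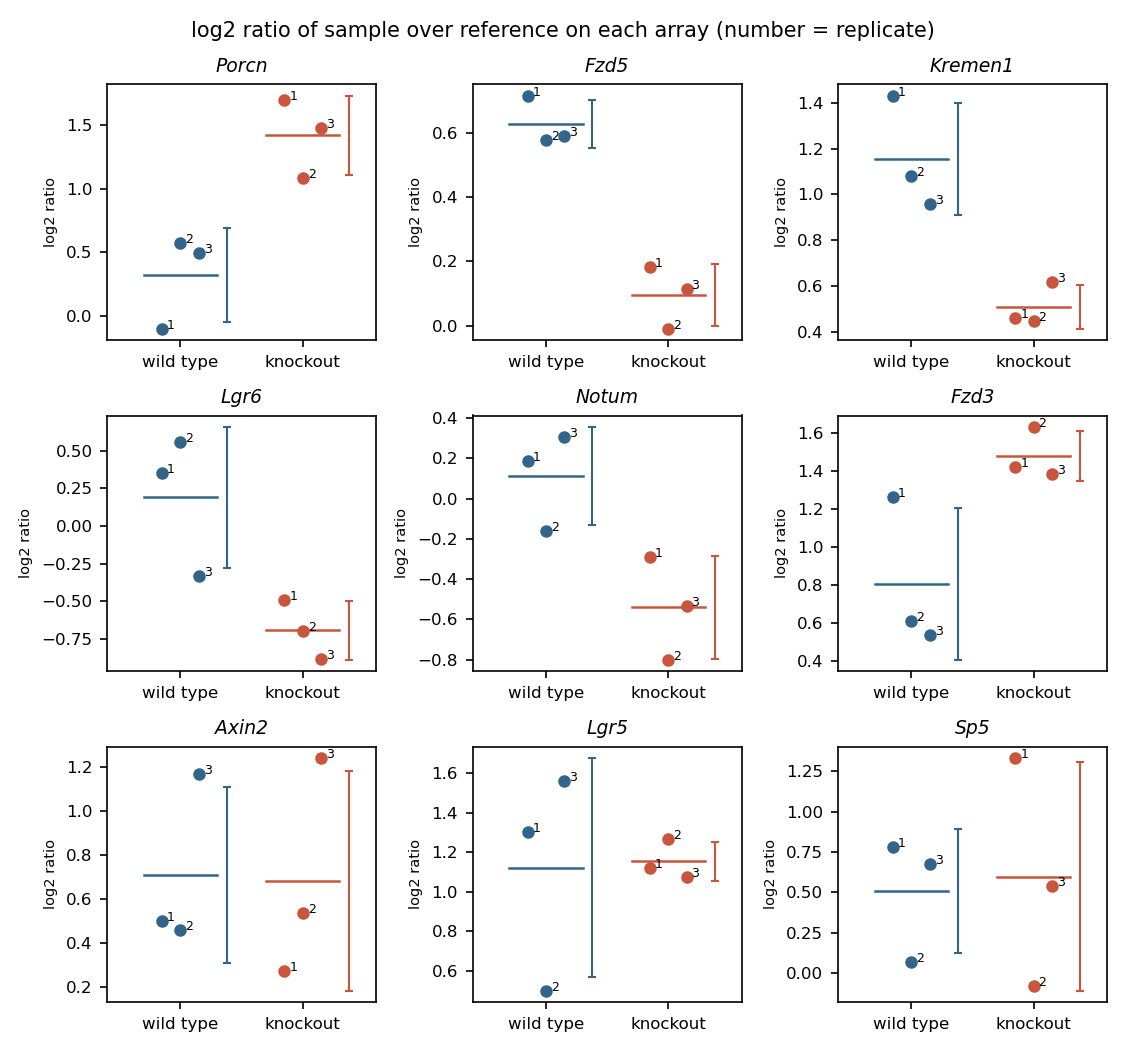
Log2 ratio of esophagus over reference on each array, for the probe with the smallest p of 9 genes; numbers are replicates, horizontal lines group means and bars the SD of 3 arrays. The groups are apart in the 6 panels from Porcn to Fzd3 and overlap for the canonical targets and stem cell marker Axin2, Sp5 and Lgr5, and each panel has its own vertical scale.

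Among the LRP co-receptors and receptor tyrosine kinases, 5 of 6 tested probes had a higher mean on the knockout arrays, with a median difference of 0.35. Over all probes 15167 of 30501 had a higher mean there. Ryk, a Wnt receptor whose kinase domain is inactive, had both probes higher. One read -0.35, -0.04 and 0.00 against 0.40, 0.36 and 0.06 (difference 0.41, SE 0.17, limma adjusted p = 0.21). Its 3 knockout values lay above the wild type values, and its Cy3 difference was 0.30. The other Ryk probe differed by 0.50 (adjusted p = 0.25), with a Cy3 difference of 0.06. Lrp5 and Lrp6, the co-receptors of the canonical branch, differed by 0.22 and 0.37 (adjusted p = 0.45 and 0.32 in limma), and for both the groups overlapped. Ror2, a receptor of Wnt5a, had 2 probes of opposite sign. The one with the smaller p differed by 0.33 (SE 0.18, adjusted p = 0.31), and the brighter one by -0.35 with a Cy3 difference of -0.88. Ror1 was not tested. Its Cy5 signals were between -2 and 75 across both probes and all arrays.

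The R-spondin receptors, leucine-rich repeat proteins that keep frizzled receptors at the surface when R-spondin is bound, had their smallest p in Lgr6. Lgr6, a marker of stem cells in hair follicle and other epithelia, read 0.35, 0.55 and -0.34 on the wild type arrays and -0.49, -0.70 and -0.89 on the knockout arrays. The highest knockout value lay just below the lowest wild type value. The difference of -0.88 (SE 0.25, 95% interval -1.48 to -0.29, limma adjusted p = 0.097) did not pass. In Cy5 the probe gave 54, 79 and 71 against 8, 17 and 9, and it was well above background on 3 wild type arrays and 1 knockout array. It thus entered the test only through the wild type arrays, where it was higher. The filter on all 6 arrays left Lgr6 out. Lgr6 passed in 5 of the 15 alternatives that gave it a value, among them the deposited log ratio and the series matrix, which hold nearly the same values. Both gave -2.28 (limma adjusted p = 0.043 in each), where the knockout signals were these dim ones. It also passed with Cy5 alone (-0.98, adjusted p = 0.017) and with the replicate block (adjusted p = 0.043). The last was the fit without wild type replicate 3 (-1.15, adjusted p = 0.039, where 3.64% of all probes passed). With median centring Lgr6 stood at -0.54 (limma adjusted p = 0.38). Its Cy3 difference was -0.50. Lgr5, the intestinal stem cell marker and a canonical target, read 1.30, 0.50 and 1.56 against 1.12, 1.26 and 1.07, a difference of 0.03 (95% interval -0.61 to 0.68, adjusted p = 0.96). The 3 tested Lgr4 probes differed by -0.11, -0.21 and -0.28 (smallest limma adjusted p = 0.41).

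Secreted antagonists bind ligands (Sfrp1, Sfrp2, Sfrp4, Wif1) or the LRP co-receptor (Dkk1, Dkk2), and Kremen1 removes LRP6 from the surface together with Dickkopf proteins. Of 8 tested probes of 6 genes, 7 had a lower mean on the knockout arrays, with a median difference of -0.24. Over all probes 15334 of 30501 had a lower mean there. Kremen1 read 1.43, 1.08 and 0.96 on the wild type arrays and 0.46, 0.45 and 0.62 on the knockout arrays. The groups were apart by the ratio (difference -0.64, SE 0.17, limma adjusted p = 0.079). The sign depended on the reference. Kremen1's Cy5 signal, not normalized, was 311, 329 and 370 on the knockout arrays against 152, 135 and 276. With Cy5 alone, normalized between arrays, the difference was 0.35 and did not pass (limma adjusted p = 0.18). Cy3 differed more, at 525, 479 and 496 against 203, 190 and 208. With the deposited log ratio Kremen1 passed at -1.22 (adjusted p = 0.049). The other Kremen1 probe differed by -0.34 with overlapping groups. No direction of Kremen1 in esophagus can be given.

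The other antagonists varied widely between replicates. Dkk3, a divergent Dickkopf protein, read 2.08, 1.57 and 2.76 against 1.84, 0.55 and 1.95, a difference of -0.69 (SE 0.44, limma adjusted p = 0.39). It was lower on the knockout array for each of the 3 replicate numbers, and in the fit blocked on that number the SE was 0.20 and the adjusted p 0.084. The labels do not say that these numbers pair the samples. The Cy3 reference of the Dkk3 probe was also lower on the knockout arrays, with no overlap. Without knockout replicate 2 the difference of Dkk3 was -0.24. Sfrp2 read 0.37, 0.18 and 1.57 against 0.84, -2.22 and 0.02, a difference of -1.16 (95% interval -2.98 to 0.66). The single low value on knockout replicate 2 set most of the Sfrp2 spread, whose SD was 1.59 on the knockout arrays. Dkk2, Sfrp4 and both Sfrp1 probes had group means within 0.14 of each other. Dkk1, the antagonist known as a direct target, and Wif1 were not tested. The Cy5 signals of Dkk1 were between -1 and 25 and those of Wif1 between 1 and 15, and each was well above background on at most 2 arrays of a group.

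Within the cell, 12 probes of Apc, Axin1, Ctnnb1 and Tcf7 were tested. Of these, 4 had an unadjusted limma p under 0.05 (33.3%, beside 23.4% of all probes). Ctnnb1, beta-catenin itself, differed by -0.40, 0.07 and 0.10 in its 3 probes (smallest limma adjusted p = 0.39). The Ctnnb1 probe at -0.40 was the one with the lowest Cy5 signal, between 300 and 1087, where the other two read 5094 to 34808. Apc, the scaffold of the destruction complex, had 6 tested probes with differences from -0.74 to 0.54. The lowest of the Apc probes read 0.64, 0.80 and 0.21 against -0.29, 0.07 and -0.35 (SE 0.21, adjusted p = 0.091, and 0.046 with the replicate block). Another Apc probe read -0.30, 0.07 and -0.27 against 0.45, 0.38 and 0.29, a difference of 0.54 (SE 0.16, adjusted p = 0.10) with a Cy3 difference of 0.65. This probe was dim on the wild type arrays, with Cy5 signals of 9, 20 and 27. It was well above background on 2 wild type and 3 knockout arrays, so it entered the test through the knockout arrays. A further Apc probe, at -0.35 (limma adjusted p = 0.27), was also apart, with lower values on the knockout arrays. The remaining Apc probes differed by -0.05, 0.16 and 0.08 with overlapping groups. Probes of Apc were thus apart between groups in opposite directions, so no direction can be given for the gene.

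Tcf7, a T cell factor that partners beta-catenin and is high in T lymphocytes, read -1.44, -1.58 and -1.91 against -2.24, -1.87 and -2.43 by one probe (difference -0.53, SE 0.21, limma adjusted p = 0.18). The other Tcf7 probe differed by 0.01. Axin1 differed by -0.44 (SE 0.19, adjusted p = 0.21) beside a Cy3 difference of -0.40.

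The canonical targets gave no common direction. Axin2, the target used most often as a readout, read 0.50, 0.46 and 1.17 on the wild type arrays and 0.27, 0.54 and 1.24 on the knockout arrays. The values interleave, and the difference was -0.03 (SE 0.30, 95% interval -0.74 to 0.69, limma adjusted p = 0.97). The Cy3 difference of Axin2 was 0.61, and with Cy5 alone Axin2 differed by 0.41 (limma adjusted p = 0.34). Sp5, a zinc-finger target gene, read 0.78, 0.07 and 0.68 against 1.33, -0.08 and 0.54 (difference 0.09, 95% interval -0.79 to 0.96). Nkd1, which binds Dishevelled, read 1.29, 1.31 and 2.63 against 2.85, 1.30 and 3.25 by its brighter probe (difference 0.72, SE 0.57, adjusted p = 0.48) and differed by 0.05 by the other. The Nkd2 probes differed by 0.00 and 0.17. The intervals of Axin2 and Lgr5 leave room for changes of about 0.7 in either direction, and the interval of Nkd1 for more.

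Notum, a secreted enzyme that removes the lipid from Wnt ligands, was the target with the smallest p. It read 0.19, -0.16 and 0.31 on the wild type arrays and -0.29, -0.80 and -0.53 on the knockout arrays. The groups did not overlap. The difference was -0.65 (SE 0.20, 95% interval -1.12 to -0.19, limma adjusted p = 0.11). Cy5 signals of Notum were 48, 40 and 136 against 31, 28 and 27, and its Cy3 difference was -0.36. With Cy5 alone it passed at -0.69 (adjusted p = 0.025).

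**Figure D3:**
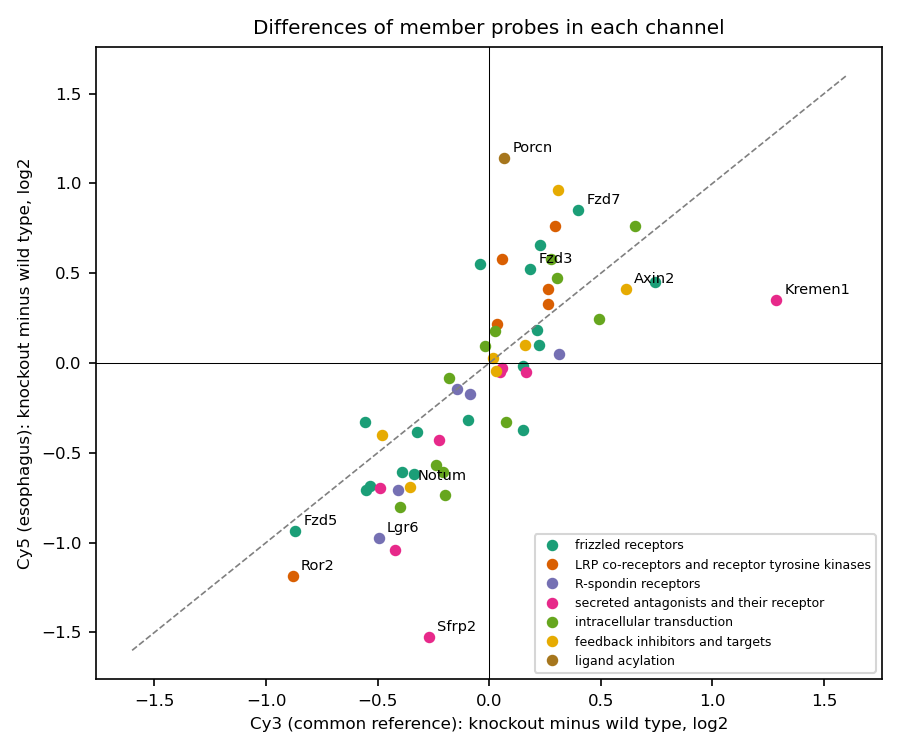
Knockout minus wild type difference of each of the 56 tested probes in Cy3, which held the same reference RNA on all arrays (horizontal), and in Cy5, the esophagus (vertical), each channel quantile-normalized on the log2 scale; the dashed line marks equal differences. Porcn sits at 0.07 in Cy3 and 1.14 in Cy5, Kremen1 at 1.28 and 0.35, and Fzd5 at -0.87 and -0.94 near the dashed line.

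Against the reference of cultured cell lines, many of these genes were high in esophagus in both groups. The ratio was above 0 on all 6 arrays for 33 of 56 probes (58.9%, beside 35.3% of all probes) and below 0 on all 6 for 6 (beside 29.4%). These figures describe the tissue relative to those cell lines and do not compare one gene's level with another's. Fzd10 had ratios of 4.27 to 5.62 by one probe and 5.32 to 6.19 by the other. Ratios of Dkk2 were between 3.54 and 5.37, and those of Sfrp1 between 2.93 and 4.27 by its brighter probe. Tcf7 was lower than in the reference on every array, at -3.86 to -3.11 and -2.43 to -1.44, as was Fzd2 at -1.46 to -0.48.

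In several antagonists and in Nkd2 the same replicate number was low in both groups. This pattern was chosen for description after the values were seen. In 16 of 56 probes (28.6%, beside 19.5% of all probes) replicate 2 was the lowest array in both groups, among them 5 of 8 antagonist probes and 4 of 7 probes of feedback inhibitors and targets. Dkk2 read 4.54, 3.54 and 5.37 on the wild type arrays and 4.34, 3.58 and 5.32 on the knockout arrays. The same array number was low and the same high in both groups. Sfrp4, a frizzled-related protein, read 3.63, 1.48 and 3.72 against 3.21, 1.93 and 3.64. Nkd2 read 2.12, 1.61 and 3.13 against 2.62, 1.30 and 3.44 by its brighter probe. Neither Nkd1 probe had replicate 2 lowest in both groups. The within-group SD was 0.91 and 0.87 for Dkk2 and 1.27 and 0.89 for Sfrp4, where the group means of each differed by less than 0.1.

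Markers of some other cell types moved with the same arrays. Replicate 2 was the lowest array in both groups for 8 of 14 fibroblast marker probes and 5 of 10 tested leukocyte marker probes. Over all probes the share was 19.5%. For skeletal muscle replicate 2 was the highest in both groups in 12 of 13 probes, beside 14.7% of all. It was lowest in 1 and highest in 2 of 9 smooth muscle probes, and lowest in 1 and highest in 0 of 6 endothelium probes. Of 11 squamous epithelium probes it was lowest in 0 and highest in 0, and of 6 nerve and glia probes lowest in 0 and highest in 3. The summed Cy5 signal of the 14 fibroblast probes ran from 172782 to 470332 on the wild type and from 214081 to 559928 on the knockout arrays, and each fibroblast probe was well above background on at least 1 array. The summed signal of the 13 skeletal muscle probes ran from 40092 to 413141 and from 130395 to 1036520. The 10 leukocyte probes summed to 34308 to 123352 and 35153 to 72292, and 1 further probe each of Cd3e and Ptprc was below that limit on all 6 arrays. Of the fibroblast and leukocyte probes none passed between the groups, and of the skeletal muscle probes 1 of Myh2 did (1.63, limma adjusted p = 0.040). All 13 skeletal muscle probes had a higher mean on the knockout arrays, with a median difference of 1.43 and 12 of 13 at 1 or more, beside a median of -0.003 over all probes. Among the 11 squamous epithelium probes 1 of the 2 of Dsg3, a desmosomal cadherin, passed (-2.85, adjusted p = 0.026), and the median difference was -0.16. The part of the tissue's cell mix in the values of Dkk2, Dkk3, Sfrp2, Sfrp4 and Nkd2 was not tested. In whole tissue fewer cells of a type and less RNA per cell cannot be told apart.

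**Figure D4:**
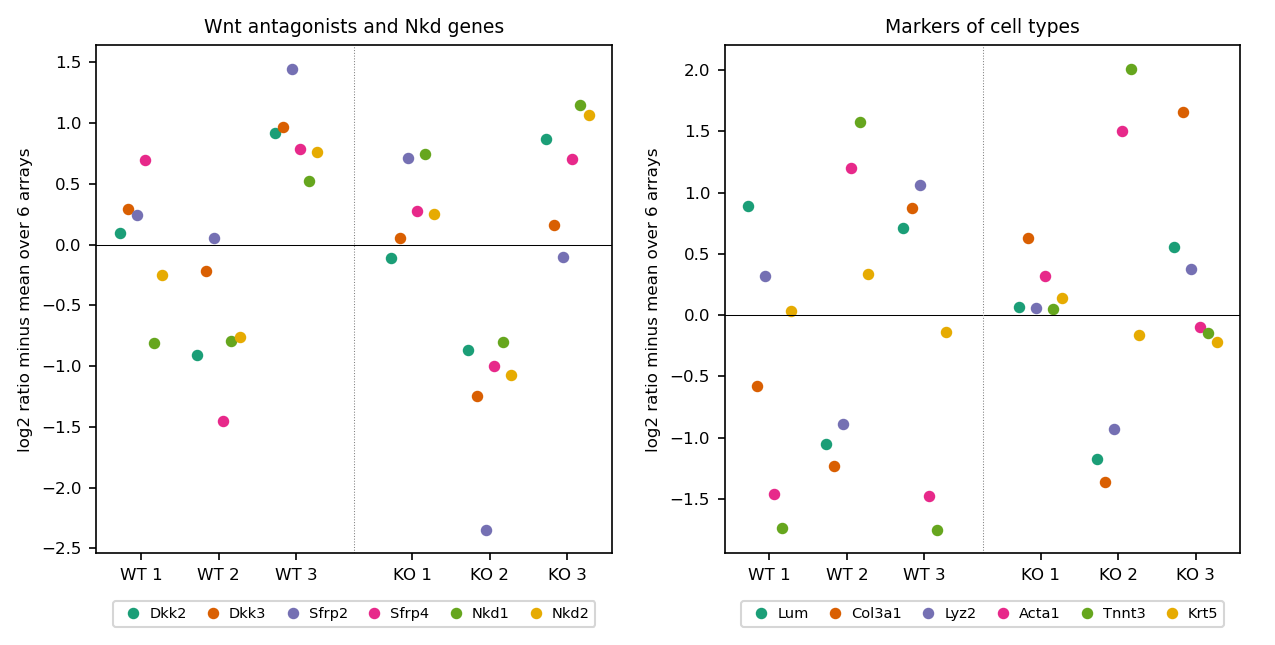
Log2 ratio minus its mean over the 6 arrays, for the brightest probe of 6 antagonist and Nkd genes (left) and of 6 cell type markers (right), on wild type (WT) and knockout (KO) arrays by replicate number. The genes shown were picked after the values were seen, and other markers of the same lists did not all follow them. Sfrp1 and Kremen1 are not shown. Neither the brighter Sfrp1 probe nor any Kremen1 probe had replicate 2 lowest in both groups. On the left most points of replicate 2 lie below 0 in both groups, as do Lum, Col3a1 and Lyz2 on the right, while the muscle genes Acta1 and Tnnt3 lie highest there and Krt5 stays near 0.

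Beyond these genes, 98 other Wnt pathway genes were listed, of which 91 were tested by 145 probes. Past the threshold in limma were 9 of the 145 probes, from 7 genes, 4 higher and 5 lower on the knockout arrays, beside 4.18% of all probes. With the replicate block 16 of 145 passed, where the block called 7.39% of all probes. Of the 9 probes, 6 were among the 23 probes of Wnt ligands, beside the same 4.18% of all. Whether these shares differ from those of all probes was not tested. Wnt3, a canonical ligand, fell in both of its probes. One read 4.62, 5.24 and 4.38 on the wild type arrays against 0.01, -0.16 and -0.13, and the other 3.88, 4.24 and 4.92 against 0.03, -0.02 and 0.12 (differences -4.84 and -4.31, adjusted p = 0.0012 and 0.0020). The knockout values sat at the ratio of a dim spot. The first Wnt3 probe was not well above background in Cy5 on any knockout array, where the Cy5 channel after loess and normalization between arrays was at least 37.6-fold lower, set by the lowest signal measurable there. Its Cy3 difference was -1.03, and that of the second probe, well above background on 1 knockout array, was 0.06. The call of Wnt3 held in all 15 alternatives that gave each probe a value.

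Wnt9b, a ligand gene next to Wnt3 on chromosome 11, rose. Its probe at chr11:103588882-103588941 read 1.54, 0.94 and 1.78 against 2.51, 2.51 and 2.69 (difference 1.15, SE 0.23, limma adjusted p = 0.043), with a Cy3 difference of 0.02. The Wnt3 probes lie at chr11:103677409-103677468 and chr11:103679038-103679097. Wnt16 rose from 0.63, 0.72 and 0.92 to 2.52, 1.50 and 2.59 (difference 1.45, SE 0.30, adjusted p = 0.047), with Cy3 differing by 0.27. Wnt9a fell in both probes, by 0.98 (adjusted p = 0.033) and 0.65 (adjusted p = 0.049). The first Wnt9a probe was not well above background on any knockout array and was at least 2.16-fold lower there in Cy5. The calls of Wnt9b, Wnt16 and Wnt9a depended on single arrays and on the processing, with the direction kept. When 1 array was left out, Wnt9b kept its call only without wild type replicate 3 (1.33, and 0.91 to 1.21 without any other), Wnt16 only without knockout replicate 2 (1.80, and 1.25 to 1.53 without any other), and both Wnt9a probes lost it in all 6 cases. Over all 16 alternatives Wnt9b passed in 7 and Wnt16 in 6. With the deposited log ratio Wnt16 was at 0.93 (limma adjusted p = 0.45) and Wnt9b at 1.07 (0.096), and with median centring at 0.82 (0.24) and 0.95 (0.12). The Wnt9a probes passed in 8 of 15 and 3 of 16, and stood at -0.86 (0.098) and -0.45 (0.39) with median centring.

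Sfrp5, a frizzled-related antagonist, rose from -0.01, 0.05 and 0.12 to 1.77, 1.36 and 1.48 (difference 1.48, SE 0.16, limma adjusted p = 0.0098). Ascl2, a bHLH target gene of intestinal stem cells, rose by 0.96 (SE 0.19, adjusted p = 0.041). In both the reference channel differed the same way, by 1.58 for Sfrp5 and 1.26 for Ascl2. The Cy3 signal of Sfrp5 went from 43, 37 and 35 to 213, 204 and 207, and Cy5 from 13, 15 and 28 to 390, 323 and 346. Slide and group cannot be told apart in these values. With median centring both lost the call, at 0.48 for Sfrp5 and 0.18 for Ascl2. Ascl2 also lost it with the deposited log ratio and the matrix values (0.43, limma adjusted p = 0.45 in each) and with the filter on all 6 arrays (adjusted p = 0.051). The call of Sfrp5 was further lost on leaving out wild type 1 (1.45) or knockout 3 (1.51), and Ascl2 on leaving out any of the 6 arrays (0.78 to 1.06). Ccn1, a matricellular protein listed as a target, fell from -3.32, -3.11 and -3.27 to -4.06, -4.52 and -4.53 (difference -1.14, SE 0.18, adjusted p = 0.024), with a Cy3 difference of -0.17, and kept the call only without wild type replicate 3 or knockout replicate 1 when 1 array was left out (-1.06 to -1.18 without any other). The call of Ccn1 ended too with the deposited log ratio (-0.91, limma adjusted p = 0.090), the matrix values (-0.91, 0.091), median centring (-0.91, 0.16) and scale normalization between arrays (-0.91, 0.051). Next in p, and not past the threshold, were Vangl1, a core planar polarity protein (-0.86, adjusted p = 0.055, and -0.17 by its other probe), Draxin, a secreted antagonist (0.77, adjusted p = 0.055, and -0.63 by its other tested probe), and Ctbp2, a co-repressor (0.69, adjusted p = 0.059).

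**Figure D5:**
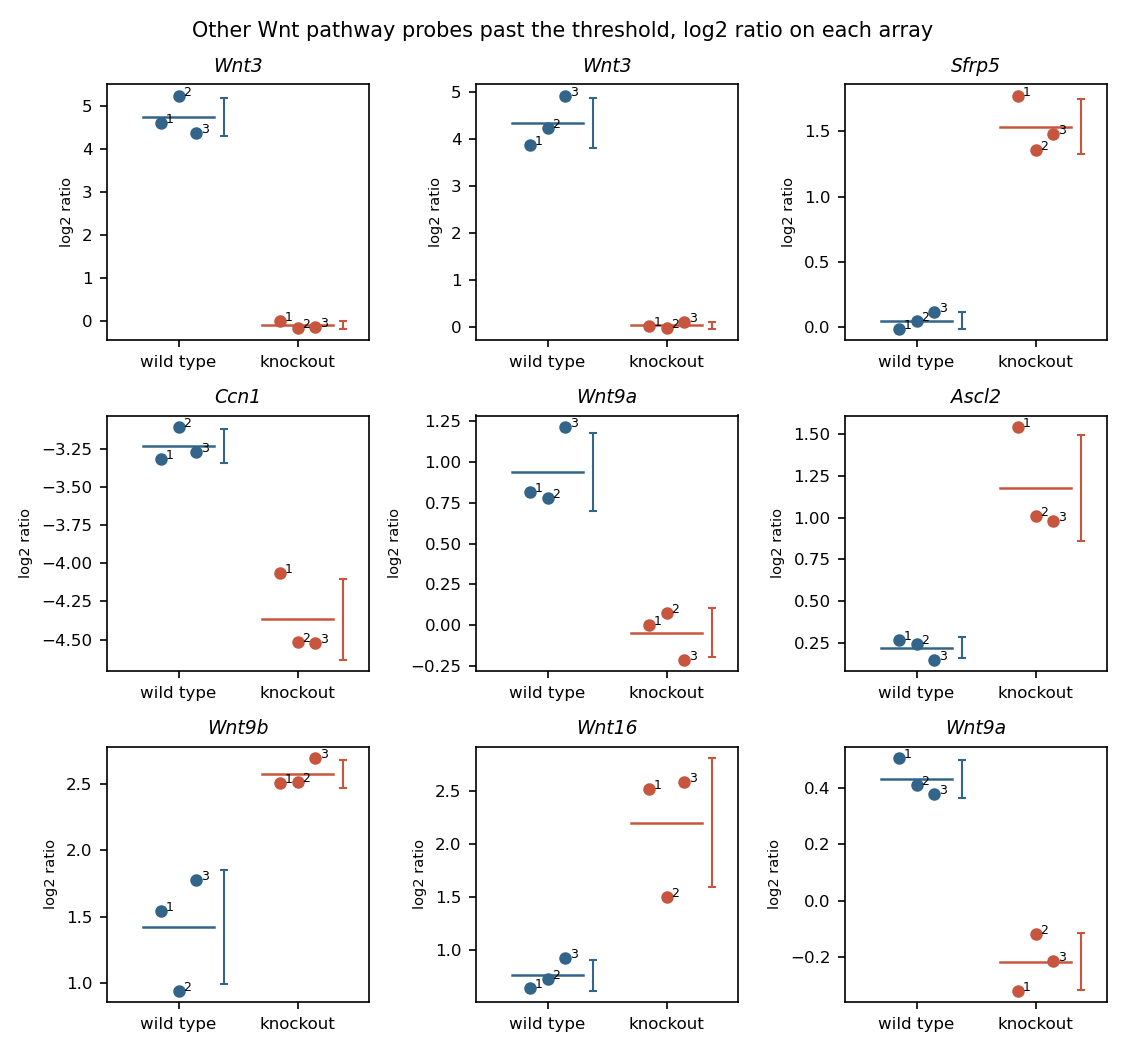
Log2 ratio on each array of the 9 probes of other Wnt pathway genes past the limma threshold; numbers are replicates, lines group means and bars the SD of 3 arrays. The Wnt3 probes lie at 3.88 or more on all wild type arrays and near 0 on all knockout arrays, and the 4 probes of Sfrp5, Ascl2, Wnt9b and Wnt16 lie higher on the knockout arrays.

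The genes whose pattern over the 6 arrays was most like that of Porcn were Olfr1442 (Pearson r = 0.998), Phactr4 (0.996), Rtkn (0.993), Olfr1093 (0.992) and Taz (0.992). The arrays share their slides within groups, and 316 of 30485 probes reached r of 0.95 with Porcn. With 6 arrays this likeness is a description.

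Promoters were read for the sequence that TCF factors bind, because Axin2 and Sp5 are both known direct targets and neither passed the test. RefSeq (GRCm38.p6) gave windows of 250 bases before the start for 21 of the 36 genes. CTTTGAT or CTTTGAA on either strand was found in 2 of 23 windows (8.7%), beside 7.48% of 32851 windows of the same length. One match was in Sp5, 104 bases before its start, and the other in Dkk1, 117 bases before. Sp5 is shown from chr2:70474673-70474922, and Axin2, in which the letters were not found, from chr11:108920099-108920348, both on the plus strand with the match in capitals. A match is a description of letters, and no binding was measured.
Sp5: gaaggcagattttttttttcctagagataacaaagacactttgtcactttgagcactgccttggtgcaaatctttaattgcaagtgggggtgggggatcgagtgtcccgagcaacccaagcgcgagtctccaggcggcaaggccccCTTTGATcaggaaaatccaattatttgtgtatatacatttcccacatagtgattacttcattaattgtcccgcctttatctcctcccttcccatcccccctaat
Axin2: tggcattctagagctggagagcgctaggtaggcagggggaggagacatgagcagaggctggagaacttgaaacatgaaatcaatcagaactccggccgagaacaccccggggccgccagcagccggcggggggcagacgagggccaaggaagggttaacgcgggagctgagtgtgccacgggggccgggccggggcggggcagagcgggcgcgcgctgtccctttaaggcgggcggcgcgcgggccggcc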

How the data were processed

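The deposited files are scanner outputs of an Agilent whole mouse genome array (design 014868), with Cy5 and Cy3 intensities per spot written by Feature Extraction 10.7.3.1, per the file headers (9.1 in the submitters' processing notes), and a deposited log10 ratio (Cy5 over Cy3) made by the authors' run of that program. The deposited matrix holds log2 ratios of the opposite sign (correlation with the scanner ratio -0.993 to -0.996 on each array, slope near -1, column medians -0.02 to 0.01), so it was turned in sign. No probe positions other than the files' own (mm9) were used.

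Mean intensities were background-corrected with normexp (offset 50) and loess-normalized within arrays in limma 3.58.1 (R 4.3.3), with control spots at weight 0 and outlier spots left out. Spots of a probe were averaged, and probes of a gene were kept apart. Probes entered the test where Cy5 was well above background throughout the 3 arrays of either group. lmFit and eBayes compared knockout with wild type, and p-values were adjusted by Benjamini-Hochberg over all 30501 tested probes, at a threshold of 0.05. An exact permutation test of 1 probe cannot go below 0.1 with 3 arrays against 3. Precision is limited by the 3 arrays per group. The fit was also run on simulated data with independent noise on each array. That simulation held no effect of slide or position, so it does not give the error rate under this design.

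Replicate numbers are shared by the groups. After subtracting group means, same-numbered arrays had correlations of 0.17, 0.51 and 0.34 (other pairs -0.49 to 0.16), all over 0.1, so a block on the number was fitted as an alternative. The labels do not say what the numbers stand for, and numbers 1, 2 and 3 lay at slide positions 2, 3 and 4. 

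The members and gene lists were chosen with earlier results of these data known. Named were members past the threshold, the 2 with the smallest p of each role, and Axin2, Lgr5, Nkd1, Notum, Sp5 and Ctnnb1; other members appear by difference or range, or, in the description of the replicates, were chosen after their values were seen. Of the other pathway genes, those past the threshold, the next 3 by p and Wnt3 were named. Of 62 member probes, 54 matched RefSeq by accession, all under the same symbol. Alternatives covered background, normalization, the reference channel, the filter, the variance model, the block and each array left out.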

Additional observations from a re-analysis of the deposited data

How the results depend on the processing

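No setting changed the direction of Porcn, Fzd5, Apc, Lgr6, Notum, Fzd3, Tcf7, Ryk, Dkk3, Ctnnb1 or Nkd1, each by its probe with the smallest p. Sizes moved by over 1.5 times for several: Fzd5 to -0.13 with median centring and -0.94 with Cy5 alone; Fzd3 to 0.15 with the deposited log ratio and 0.39 with median centring; Lgr6 to -2.28 and -0.54 in those; Ryk to 0.16 and 0.84 in those; Dkk3 to -0.41 with the deposited log ratio and -1.04 with Cy5 alone, and -0.24 and -0.38 on leaving out knockout 2 or wild type 3; Tcf7 to -0.33 with Cy5 alone. Ctnnb1 ran from -0.14 (without wild type 2) to -0.61 and Nkd1 from 0.33 (without knockout 3) to 1.31 (without knockout 2). The count of Wnt gene probes past the threshold was 0 in the limma fit and 0 with offset 20, median centring, scale normalization, no filter and the filter on all 6 arrays. It was 2 with the deposited log ratio, 2 with the series matrix values, 11 with Cy5 alone, 1 with an intensity trend, 2 with the replicate block, and 0 to 1 with each array left out, the 1 being Lgr6 without wild type replicate 3. Over all tested probes the count of 1274 became 727 with the deposited log ratio, 714 with the matrix values, 139 with median centring, 8201 with Cy5 alone, 699 with the filter on all 6 arrays and 2254 with the replicate block. Leaving out arrays gave 38 to 1111, namely 108, 194 and 1111 for wild type replicates 1, 2 and 3 and 322, 836 and 38 for the knockout ones. The 9 other pathway probes became 5, 5, 2, 39, 2 and 16 in the same 6 settings, and 2 to 8 with each array left out (2, 3, 8, 4, 4 and 2 for wild type replicates 1 to 3 and knockout replicates 1 to 3).

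Reversed differences were 0.35 for Kremen1 with Cy5 alone, -0.025 for Ror2 with median centring, 0.019 for Lgr4 with the deposited log ratio and the matrix values, and for Sp5 -0.32 with each of those, -0.17 with median centring, and -0.13 and -0.28 on leaving out wild type 2 or knockout 1 (leave-one-out range -0.28 to 0.43). Lgr5 turned to -0.10 with median centring, -0.15 with Cy5 alone, -0.020 with scale normalization, and -0.28 and -0.024 on leaving out wild type 2 or knockout 2 (range -0.28 to 0.25). Axin2 turned to 0.41 with Cy5 alone, and 0.20, 0.18 and 0.048 on leaving out wild type 3, knockout 1 or knockout 2 (range -0.30 to 0.20). The cause was not tested. The slide block was not run because each group lies on 1 slide. Dim probes such as Lgr6, Notum and Fzd5 are limited by their signal over background.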
